A study of Mus musculus with 61 samples.

Results

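Of 133129 open-chromatin windows of mouse microglia in which H3K27ac was counted, 1866 were centred in an annotated exon and lay over 3000 bp from the nearest transcription start site (TSS). These exonic distal windows were taken from the authors' own annotation, in which 3661 windows were exonic at any distance. Each window is 1000 bp long in the mouse build mm10. The study asked how microglial chromatin changes in mice with a homozygous CRISPR deletion inside a super-enhancer upstream of Sall1 (EKO), a transcription factor gene of microglia, set against wild-type (WT) mice. H3K27ac was measured by ChIP-seq in 2 EKO and 2 WT libraries of microglia sorted as CD11b+CD45lowCX3CR1+ from male mice of 8 to 12 weeks. H3K27ac lists of sorted PU1 (microglial), Olig2 (oligodendrocyte lineage) and NeuN (neuronal) nuclei came from 2 EKO and 2 WT libraries each. An age of 8 to 12 weeks also holds for these nuclei and for the p300 and the EKO and WT SALL1 libraries. None was assigned to the PWK, SPRET and SMAD4 libraries. Reproducible peak lists of SALL1 came from EKO, PWK, SPRET and WT microglia (PWK and SPRET being wild-derived strains), of SMAD4 from libraries labelled mutant and from WT, and of p300 from 3 WT libraries. The mutant SMAD4 libraries carry a title that names a conditional SMAD4 deletion and a description that names EKO, and the p300 libraries are labelled partly as microglia and partly as PU1 nuclei. The SALL1 libraries are labelled as microglia, while the study's methods describe sorted nuclei. Nothing in the labels gives separate animals for libraries of the same group. The p-values thus measure the spread between these libraries, in part pooled over windows.

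H3K27ac, acetylation of lysine 27 of histone H3, is laid down by p300 and its relative CBP and marks active promoters and enhancers. Most enhancers lie in introns or between genes, where sequence is free of a protein code. An exon that also carries an enhancer has to serve both uses, and exonic enhancers have been described in several tissues. In microglia, open chromatin is mainly selected by the ETS factor PU.1, while SMAD4 carries TGF-beta signals to the nucleus, and SALL1 is a zinc-finger factor that sets microglial identity.

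The sequences of windows that lead the comparison are shown first, to set the letters of an exon beside its mark. They are the central 200 bp of each window on the plus strand of GRCm38.p6 as RefSeq gives it (mm10), with the Sall1 stretch kept to 115 bp of coding exon. Capitals mark matches, on either strand, to GGAAGT (the core of PU.1 and other ETS sites), CAGAC (SMAD) and TGANTCA (AP-1). TATTTNTA (an AT-rich motif) and TTGCNNAA (C/EBP) were searched too and had no match in the stretches shown. Sall1 exon 4 of 4, chr8:89028378-89028492, led the losses in EKO. Runx3 exon 2 of 6, chr4:135152868-135153067, and Cenpf exon 12 of 18, chr1:189657523-189657722, led the gains. Otulinl exon 2 of 8, chr15:27664696-27664895, and Tg exon 11 of 48, chr15:66685208-66685407, led the windows that held SALL1, SMAD4 and p300 peaks at once.
Sall1: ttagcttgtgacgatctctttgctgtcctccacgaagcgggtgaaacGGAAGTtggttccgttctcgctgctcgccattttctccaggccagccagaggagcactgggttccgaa
Runx3: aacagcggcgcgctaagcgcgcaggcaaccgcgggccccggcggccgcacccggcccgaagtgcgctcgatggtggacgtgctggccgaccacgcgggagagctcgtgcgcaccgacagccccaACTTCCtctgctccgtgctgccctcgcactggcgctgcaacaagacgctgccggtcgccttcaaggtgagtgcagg
Cenpf: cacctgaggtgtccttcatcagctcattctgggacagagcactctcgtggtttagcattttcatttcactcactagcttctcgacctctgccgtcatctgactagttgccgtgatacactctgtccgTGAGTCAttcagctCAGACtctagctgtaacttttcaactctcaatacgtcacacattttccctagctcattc
Otulinl: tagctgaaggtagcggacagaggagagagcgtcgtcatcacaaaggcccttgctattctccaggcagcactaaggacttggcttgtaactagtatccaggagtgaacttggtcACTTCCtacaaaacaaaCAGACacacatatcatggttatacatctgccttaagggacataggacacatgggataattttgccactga
Tg: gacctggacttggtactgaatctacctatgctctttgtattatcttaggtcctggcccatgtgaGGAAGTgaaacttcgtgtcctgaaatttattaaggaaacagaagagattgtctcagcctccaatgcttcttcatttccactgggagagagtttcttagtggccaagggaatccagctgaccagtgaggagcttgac
All of the Sall1 and Cenpf stretches is exon, while 189 bases of Runx3, 118 of Otulinl and 152 of Tg are. A GGAAGT match stood in 4 of these 5 stretches, that of Cenpf being the exception, and Cenpf held the AP-1 match TGAGTCA beside a CAGAC match.

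The 1866 windows lay in exons of 1505 host genes, all of them in coding transcripts, and were spread thinly over the genome. Internal exons held 1372 of them, last exons 491 and first exons 3 (both windows of Pcdh17, a protocadherin, and that of Irs2, an insulin receptor substrate, named here after their values were seen). The nearest TSS belonged to the host gene for 1096 windows and to another gene for the other 770. Distance to the TSS ran from 3004 to 410437 bp with a median of 14050.5 bp. The exon covered a median of 79.8% of the central 200 bp but 34.1% of the whole window, so the counted 1000 bp hold much sequence beside the exon. The windows were not all separate, since 256 overlapped another exonic distal window and the 1866 formed 1725 stretches.

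The windows differed from other distal windows in sequence. The median GC content of the central 200 bp was 55.0% in exonic distal windows against 49.0% in 47118 intronic distal windows and 50.5% in all windows, and the median number of CpG dinucleotides in 1000 bp was 19 against 11 in intronic windows. Repeats covered a median of 0% of the central stretch against 10.5% in intronic windows. GGAAGT was present in the central 200 bp of 35.4% of the exonic windows, near the 35.0% of all windows, and CAGAC in 43.4% against 41.6%. TGANTCA stood in 5.09% against 7.64% of all windows, TATTTNTA in 1.39% against 3.56% and TTGCNNAA in 7.98% against 9.37%. A transcript start of GENCODE, a fuller catalogue than the one behind the TSS distance, fell in 331 of the windows (17.7%), against 5.46% of intronic distal windows. A window far from the annotated TSS of a gene can therefore still hold the start of a listed transcript.

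Most exonic distal windows carried little H3K27ac. The median level was 12.04 and 5.23 normalized tags in EKO libraries 1 and 2 and 6.16 and 5.97 in WT libraries 1 and 2, where a normalized tag is a tag scaled to a depth of 10000000. Only 518 windows (27.8%) had a mean over the 4 libraries above 16 normalized tags, the study's cutoff applied here to that mean, against 36.7% of intronic, 29.1% of intergenic and 41.5% of all windows. EKO library 1 stood apart in the exonic windows as in the rest of the table, with a median of 58.2 tags over the 518 windows against 20.9 in EKO library 2, 38.0 in WT library 1 and 29.9 in WT library 2. The table's windows, counted with their overlaps, summed to 97.2% of that library's depth and to 33.2, 54.9 and 39.4% of the others. The recovered depths were 9963454 and 13392915 tags in EKO and 24357795 and 10047696 in WT. Since the libraries of 1 genotype differed this much, each direction is given as deposited and after quantile normalization, which sets the distributions of the 4 libraries equal. The median log2 change of all tested windows was 0.28 as deposited and −0.03 after this step.

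The level of exonic relative to intronic distal windows was alike in both genotypes when all windows were taken. The median log2 level of exonic minus intronic windows was −0.47 and −0.31 in EKO and −0.43 and −0.36 in WT, a difference of 0.00 (exact permutation test over libraries, two-sided, p = 1.0, n = 2 against 2). Among windows above 16 normalized tags it was −0.07 and −0.09 in EKO against 0.15 and 0.10 in WT, with no overlap between the genotypes. That difference of −0.21 gave p = 0.33 in the exact permutation test, the smallest that 2 against 2 libraries allow. Within that filtered set the exonic windows stood below the intronic windows in both EKO libraries and above them in both WT libraries. The filter uses the mean of these same 4 libraries, so a window can pass through the genotype in which it is high. The filtered values therefore do not give a difference for exonic windows as a whole, which was 0.00.

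**Figure D1:**
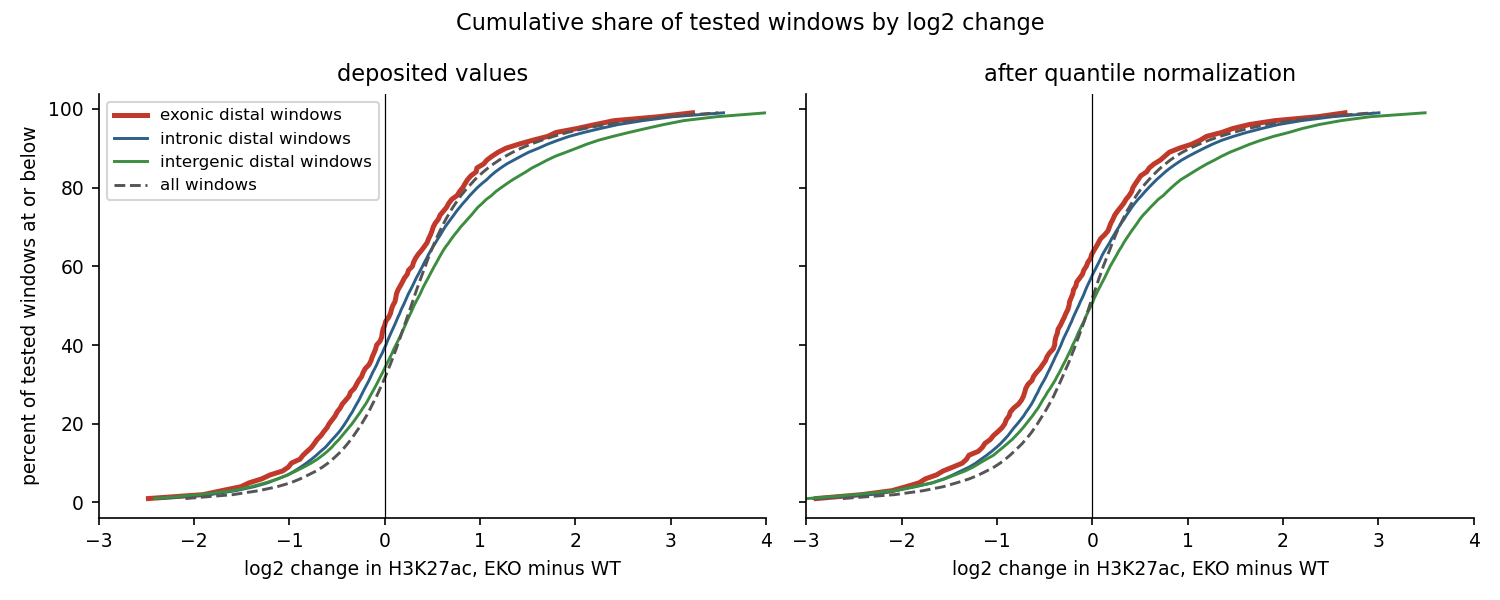
Cumulative share of tested windows (y axis, percent) by log2 change in H3K27ac, EKO minus WT (x axis), for exonic, intronic and intergenic distal windows and all windows, as deposited and after quantile normalization. The curve of the exonic windows lies left of the others except in the lowest 2 percent, with a median of 0.08 as deposited and −0.25 after quantile normalization, against 0.19 and −0.14 for intronic windows.

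Across the tested windows, H3K27ac in EKO relative to WT was shifted towards lower values in exonic windows. Their median log2 change was 0.08 as deposited, against 0.19 in intronic, 0.31 in intergenic and 0.28 in all windows, and −0.25 after quantile normalization, against −0.14, −0.01 and −0.03. Over all windows with no filter, the medians as deposited were closer, 0.20 in exonic against 0.26 in intronic, 0.36 in intergenic and 0.31 in all windows. By the study's thresholds (adjusted p below 0.05, fold change above 2), limma on the deposited values called 0 exonic windows losing, with 0.128% of all tested windows called, and 3 gaining, with 0.814% of all. At an unadjusted p below 0.05 the same fit had 10 exonic windows lower and 24 higher. These were counted in exonic windows only and are not read as changes. After quantile normalization limma called 79 losing (15.3%, against 7.56% of all tested windows and 11.3% of intronic ones) and 37 gaining (7.14%, against 8.68% and 9.99%). On the recovered tags edgeR called 76 losing and 48 gaining, where it called 7.01% and 10.6% of all windows, and DESeq2 called 51 and 32, where it called 5.13% and 7.76%. Of these, 49 losing and 31 gaining windows were shared by quantile-normalized limma, edgeR and DESeq2, again counted in exonic windows only. The 79 and 37 windows formed 69 and 33 separate stretches.

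The spread between libraries was close to the size of most changes. Both EKO libraries lay below both WT libraries in 59 exonic windows (11.4%, against 6.12% of all windows) and above them in 91 (17.6%, against 17.8%). After quantile normalization these counts were 219 (42.3%, against 31.5%) and 120 (23.2%, against 29.4%). Limma as deposited gave each window the spread of the trend over all tested windows, with no weight on that window's own libraries. Without a WT library that spread came from the 2 EKO libraries alone, and without an EKO library from the 2 WT libraries alone. The calls in exonic windows changed with the library left out. Shares over all windows were not taken for those fits, so these changes are not read as a trait of exonic windows. As deposited, the median log2 change of the exonic windows ran from −0.64 without EKO library 1 to 0.83 without EKO library 2. Limma then called windows when an EKO library was left out and none when a WT library was. After quantile normalization, an alternative chosen after seeing the data left no exonic window called without EKO library 1 or without WT library 1.

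**Figure D2:**
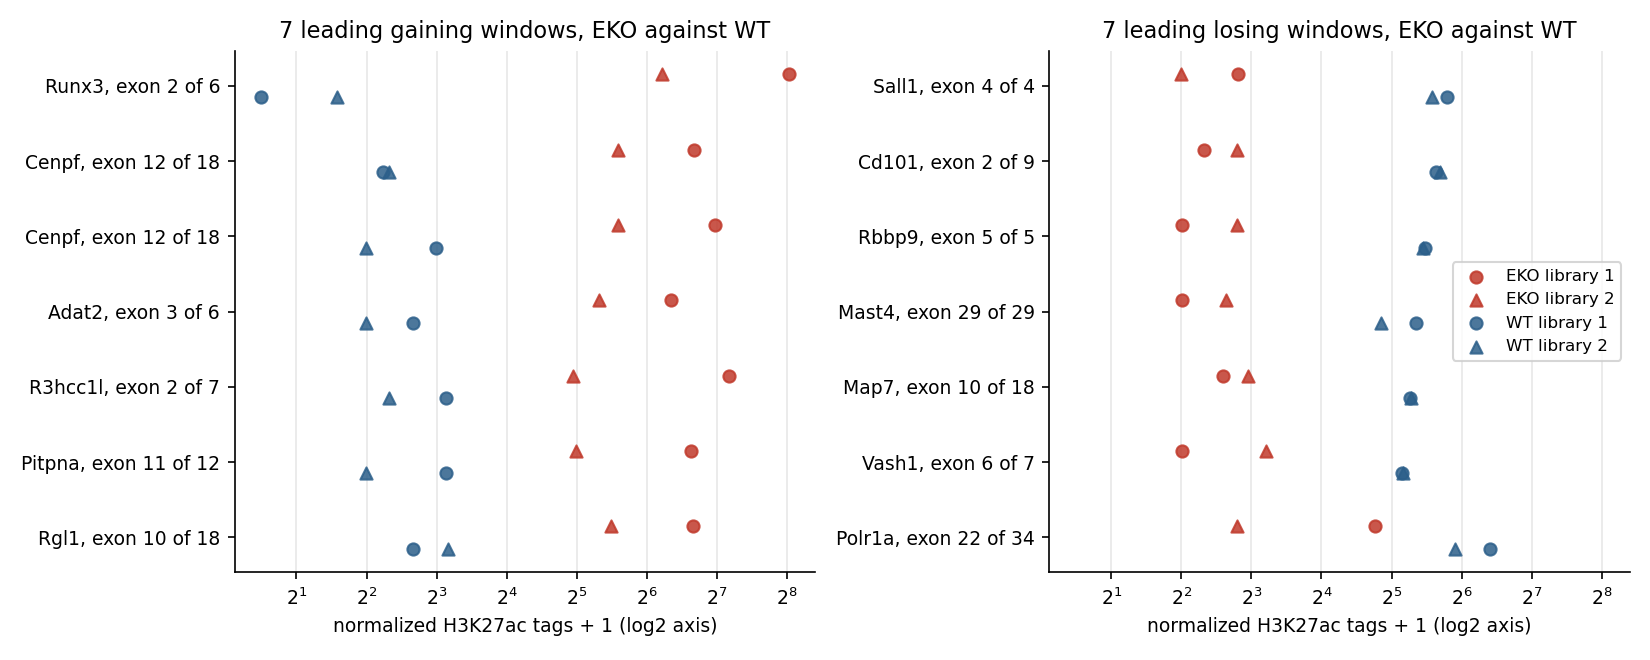
H3K27ac in normalized tags (log axis, plotted as tags + 1) in the EKO and WT libraries for the 7 gaining and the 7 losing exonic distal windows with the largest log2 change after quantile normalization, named by the host gene. In every window shown the EKO libraries and the WT libraries do not overlap, a trait that the choice of windows favours. The gap is widest in Runx3, with 259 and 73.2 tags in EKO against 0.41 and 1.99 in WT.

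Sall1 itself led the losses, although the deletion lies outside the gene. The window over exon 4 of 4 (chr8:89027892-89028892, whose nearest TSS is that of Mir8110) had 6.02 and 2.99 normalized tags in EKO against 54.2 and 46.8 in WT. Both EKO libraries were far below both WT libraries, with a log2 change of −3.88 ± 0.54 (SE, quantile-normalized limma, adjusted p = 2.1e-05). On the deposited values the change was −3.28 ± 1.03 and missed the threshold (limma, adjusted p = 0.10). The change was −3.69 without EKO library 1 and −2.87 without EKO library 2, with the spread then taken from the WT libraries alone. Whether it passed depended on which library was left out, and it missed the threshold without either WT library. The other 3 windows over exon 3 of Sall1 were below the limit of 16 tags and were not tested. They had 6.02 and 3.73, 0 and 0, and 7.03 and 0.75 tags in EKO, against 14.8 and 19.9, 18.9 and 20.9, and 18.5 and 25.9 in WT. All 4 windows of Sall1 came from the WT source list of open regions alone, 3 of them held a p300 peak in WT and none held a SALL1 peak.

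The other leading losses fell in genes of many functions, and none of them passed the threshold in limma on the deposited values of all 4 libraries. Cd101, which encodes an immunoglobulin-superfamily membrane protein of leukocytes, had 4.01 and 5.97 tags in EKO against 48.4 and 50.8 in WT at exon 2, a log2 change of −3.52 ± 0.55 (quantile-normalized limma, adjusted p = 8.6e-05), and held a SALL1 peak in WT. Rbbp9, a serine hydrolase that binds the retinoblastoma protein, had 3.01 and 5.97 tags in EKO against 43.5 and 42.8 in WT at its last exon. In both windows the genotypes were far apart, and the libraries of each genotype close together. Mast4, a microtubule-associated kinase, had 3.01 and 5.23 tags in EKO against 39.8 and 27.9 in WT, and Armc3, an armadillo-repeat protein, had 11.04 and 4.48 in EKO against 40.6 and 21.9 in WT, each with both a SALL1 and a SMAD4 peak. Polr1a, the largest subunit of RNA polymerase I, had 26.1 and 5.97 tags in EKO against 83.3 and 58.7 in WT and held a SALL1 peak. Map7, Vash1 and Klhl7 were also among the first 10, with quantile-normalized log2 changes between −3.05 and −2.44. Klhl7, an adaptor of a ubiquitin ligase, had the highest level of these, 50.2 and 23.9 tags in EKO against 186.80 and 133 in WT. With 1 library left out, whether limma called these 8 windows as deposited depended on which library it was, and none was called without either WT library.

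The largest gain was at Runx3, a RUNX family transcription factor of lymphoid and myeloid cells. Exon 2 of 6 (chr4:135152467-135153467) had 259 and 73.2 normalized tags in EKO against 0.41 and 1.99 in WT, which are 258 and 98 sequenced tags against 1 and 2. Relative to depth this is a ratio of 175, with an exact counting interval of 59.3 to 852 at 95%, which covers counting error only. The log2 change was 6.08 ± 1.02 (limma as deposited, adjusted p = 9.4e-06) and 5.48 ± 0.50 after quantile normalization (adjusted p = 1.2e-07), on the log2(tags + 1) scale. Without WT library 1 or without WT library 2 the change was 5.54 or 6.62 and limma's adjusted p was 1.0. A GENCODE transcript start lies within this window, and it held no SALL1, SMAD4 or p300 peak.

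Cenpf, a protein of the kinetochore and a gene of dividing cells, held more exonic distal windows than any other gene, 9 in 5 stretches. Exon 12 of 18 at chr1:189657122-189658122 had 101 and 47.0 tags in EKO against 3.69 and 3.98 in WT, with a log2 change of 3.86 ± 1.00 (limma as deposited, adjusted p = 0.017). A window that overlaps it, chr1:189656735-189657735, had 124 and 47.0 tags in EKO against 6.98 and 2.99 in WT, with 3.78 ± 0.97 (adjusted p = 0.015). Both were lost at adjusted p = 1.0 without either WT library, and at 0.15 and 0.13 in limma with a mean above 32 tags. Over the 9 windows the sum was 569 and 202 tags in EKO against 53.4 and 57.7 in WT, and 7 of the 9 came from the EKO source list alone. A SALL1 peak stood in 1 of the 9.

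None of the other leading gains passed the threshold in limma on the deposited values of all 4 libraries. Adat2, a subunit of the tRNA adenosine deaminase, had 80.3 and 38.8 tags in EKO against 5.34 and 2.99 in WT, a log2 change of 2.87 ± 0.46 (quantile-normalized limma, adjusted p = 0.00011). Pitpna, a phosphatidylinositol transfer protein, had 98.4 and 30.6 tags in EKO against 7.80 and 2.99 in WT. Rgl1, an exchange factor of the Ral pathway, had 100 and 44.1 tags in EKO against 5.34 and 7.96 in WT and was the 1 leading gain that held a SALL1 peak. R3hcc1l, Atp8b4 (a P4-type ATPase), Man2a1 (a Golgi mannosidase) and Lekr1 completed the first 10, with quantile-normalized changes of 2.43 to 2.77. With 1 library left out, whether limma called these 7 windows as deposited depended on which library it was, and none was called without either WT library.

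**Figure D3:**
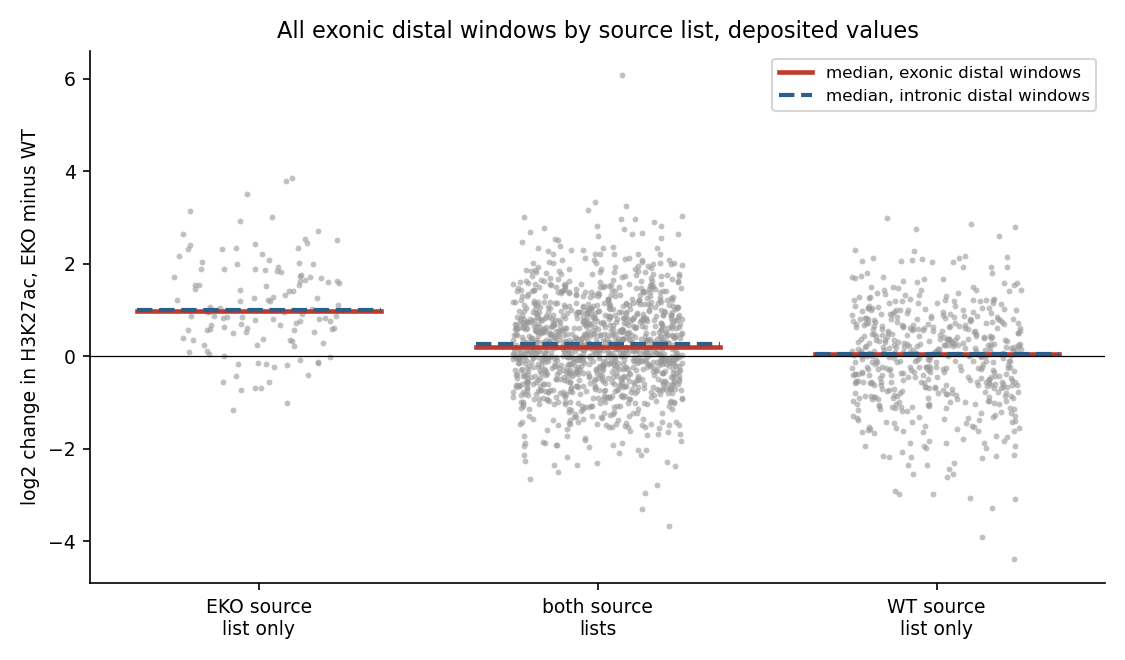
Log2 change in H3K27ac, EKO minus WT, on log2(tags + 1) of the deposited values (y axis), of all 1866 exonic distal windows (points) by the source list of the window (x axis), with the medians of exonic (solid lines) and intronic (dashed lines) distal windows. The exonic medians fall in the order EKO list only (0.98), both lists (0.20) and WT list only (0.04).

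Each window carries the name of the list of open regions it came from, and the H3K27ac difference was largest in windows of the EKO list. The table's name points to ATAC-seq, and the study's methods describe ATAC-seq peaks annotated with H3K27ac tags. They are not the SALL1 ChIP lists, since the EKO list of SALL1 held 7 peaks. The 124 exonic distal windows of the EKO source list alone had a median of 14.6 and 5.97 tags in EKO against 3.90 and 2.99 in WT, with a median log2 change of 0.98 over all 124. The 1210 windows of both lists had 14.05 and 5.97 tags in EKO against 7.39 and 6.97 in WT, with 0.20. The 532 windows of the WT source list alone had 9.03 and 3.73 tags in EKO against 4.93 and 4.98 in WT, with 0.04, where all windows of the table had 0.31. Intronic distal windows gave 1.00, 0.26 and 0.05 for the same 3 groups, so that the order and the sizes were close to those of the exonic windows. The differences between the lists were not tested. These medians take every window as deposited, since a window open in 1 genotype alone can reach a mean above 16 tags through that genotype, and 23, 427 and 68 windows did pass.

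Among the gene lists, microglia identity genes had the most exonic distal windows. Assigned by the nearest TSS, 9 of its 36 genes had 16 windows, of which 11 were tested, with a median log2 change of −0.46 (−0.74 after quantile normalization) against 0.28 (−0.03) over all windows. Of these 11, 4 fell after quantile normalization, where 7.56% of all tested and 15.3% of the tested exonic windows did. In this list 0 gained, and 0 were called as deposited. The 4 were 3 overlapping windows of P2ry12, which share tags, and that of Cx3cr1 (both below). Assigned by the host gene, an alternative chosen after seeing the data, 11 of 23 windows were tested and 5 fell, the same 4 and that of Sall1. The tested windows at exon 28 of Med12l, whose nearest TSS is that of P2ry12, and at exon 4 of Fcrls rose after quantile normalization. They changed by 0.43 and 0.23, and neither was called. The former had 50.2 and 21.7 tags in EKO against 20.5 and 16.9 in WT. P2ry12, the purinergic receptor that microglia use to sense nucleotides, held 3 overlapping windows in its last exon, whose nearest TSS is that of P2ry13. That at chr3:59216916-59217916 had 18.1 and 15.7 tags in EKO against 82.9 and 46.8 in WT (log2 change −2.27, quantile-normalized limma, adjusted p = 0.00038), and the other 2 changed by −2.04 and −1.93. In all 3 both EKO libraries lay below both WT libraries as deposited. Cx3cr1, the fractalkine receptor, had 115 and 18.7 tags in EKO against 119 and 54.7 in WT at exon 2, and its change of −1.06 (quantile-normalized limma, adjusted p = 0.019) rests on libraries that overlap as deposited.

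The other lists touched few exonic distal windows. Macrophage lineage factors had 2 tested windows, Runx3 (above) and Irf8, a myeloid transcription factor, which had 131 and 35.8 tags in EKO against 79.7 and 67.7 in WT. Chromatin regulators had 2 tested, both in the remodeller gene Chd7, where exon 31 had 41.2 and 23.2 tags in EKO against 57.9 and 46.8 in WT (−1.06, quantile-normalized limma, adjusted p = 0.018) and exon 29 had 273 and 89.6 against 153 and 93.6. The TGF-beta pathway had 1 tested window, at Ski, a repressor of SMAD signalling, with 105 and 29.9 tags in EKO against 77.2 and 28.9 in WT. AP-1 and immediate early genes had 2 tested, activated and disease-associated microglia 1, and adhesion and matrix genes 0 of 2 windows, with no call in any of these 3 lists. For other cells of the brain and blood, border-associated macrophages, monocytes, lymphocytes and endothelial cells had no window by nearest TSS, neutrophils 1 and neurons 1, both untested. Assigned by the host gene, endothelial and mural genes had 3 windows and neuronal genes 3, all untested. By that assignment activated and disease-associated microglia had 3 tested windows, again with no call. Oligodendrocyte genes had 4 windows, 3 tested with no call, which summed to 150 and 61.2 tags in EKO against 110 and 108 in WT. Astrocyte genes had 4, of which exon 7 of Slc1a3, a glutamate transporter, had 91.3 and 21.7 tags in EKO against 128 and 67.7 in WT (−1.32, quantile-normalized limma, adjusted p = 0.0011). The Slc1a3 windows both held SALL1, SMAD4 and p300 peaks and lay in called regions of all 4 PU1 nuclei libraries and in none of the Olig2 and NeuN libraries. The part of other cell types in the result was not tested.

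**Figure D4:**
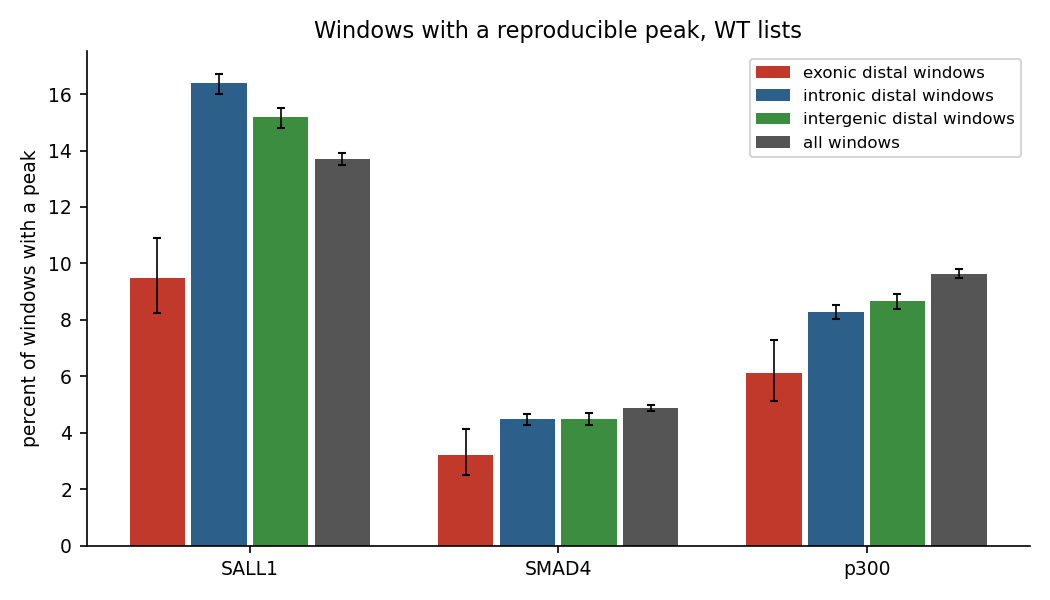
Percent of windows (y axis) that overlap a reproducible SALL1, SMAD4 or p300 peak of the WT lists, for exonic, intronic and intergenic distal windows and all windows, with 95% Wilson intervals as bars. Exonic windows are lowest for all 3 factors, at 9.49% for SALL1, 3.22% for SMAD4 and 6.11% for p300.

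Exonic distal windows had lower shares with SALL1, SMAD4 and p300 peaks than intronic ones, by more than the counting intervals. A WT SALL1 peak overlapped 177 of the 1866 (9.49%, 95% Wilson interval 8.24 to 10.9), against 16.4% (16 to 16.7) of intronic and 13.7% (13.5 to 13.9) of all windows. The EKO SALL1 list overlapped 0 of the 1866, but it holds only 7 peaks, too few to set exonic windows apart from others. The PWK and SPRET lists, which are shorter (3627 and 2245 peaks against 15410 in WT), overlapped 48 and 35, and 9 windows had a peak in all 3. SMAD4 peaks stood in 33 windows in the libraries labelled mutant, whose list is shorter (2333 peaks against 4024 in WT). In WT they stood in 60 (3.22%, 2.51 to 4.12, against 4.48% of intronic windows, 4.29 to 4.67), with 18 windows in both lists. The p300 peaks stood in 114 (6.11%, 5.11 to 7.29, against 8.29%, 8.04 to 8.54). Each list holds as many peaks as its own header states, while the study describes larger WT sets for SALL1 and SMAD4, so the shares are those of the deposited lists. These intervals cover counting error only, and windows that overlap each other share peaks.

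The share with a SALL1 peak varied within the exonic windows. It was 19.0% of 468 windows with a GC content under 50%, 8.39% of 918 with 50 to 60% and 2.29% of 480 above 60%. Internal exons had 11% and last exons 5.30%. Windows up to 10000 bp from a TSS had 6.33%, those from there to 30000 bp 11% and those from there to 100000 bp 12.7%, whereas intronic windows had 15.9, 16.7 and 16.6% over the same distances. Windows with GGAAGT in the centre had 12.7%. The share of exonic windows with SALL1 that also had SMAD4 was 21.5% (38 windows), near the 18.5% of intronic windows, and 63.3% of the SMAD4 windows had SALL1, against 67.8%. Of the p300 windows 43.0% (49 windows) had SALL1, against 64.0% in intronic windows.

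Windows with a peak carried more H3K27ac. The 177 with SALL1 had medians of 58.2 and 20.2 tags in EKO and 37.0 and 28.9 in WT, and the other 1689 had 10.0 and 4.48 in EKO and 5.34 and 4.98 in WT. Of the 177, 138 were tested, and after quantile normalization 16 fell and 8 gained (11.6% and 5.80%). Of all tested windows of the table, 7.56% fell and 8.68% gained. Among the 380 tested exonic windows with no SALL1 peak, 63 fell and 29 gained (16.6% and 7.63%). SMAD4 windows were the richest in the mark, with 102 and 33.98 tags in EKO against 99.6 and 64.7 in WT over the 60. After quantile normalization 14 of 57 tested fell (24.6%, against 7.56% of all tested windows) and 0 gained (against 8.68%). Of 1981 tested intronic SMAD4 windows, 243 fell and 47 gained. As deposited, 0 windows with a SALL1, SMAD4 or p300 peak were called in either direction, where 0.128% of all tested windows were called losing and 0.814% gaining. A test of the difference between windows with and without a peak was not made.

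The 20 windows with all 3 peaks were strongly acetylated in both genotypes, with medians of 137 and 45.2 tags in EKO and 100 and 71.7 in WT, and all 20 lay in called regions of all 4 PU1 nuclei libraries. Ranked by the score of the SALL1 peak, they began with Otulinl, a relative of the deubiquitinase OTULIN, which had 90.3 and 46.3 tags in EKO against 100 and 81.6 in WT. Tg, which encodes thyroglobulin of the thyroid, had 31.1 and 7.47 tags in EKO against 15.6 and 15.9 in WT, and its genotypes overlapped. Il17ra, a receptor chain for IL-17, had 143 and 50.8 tags in EKO against 41.9 and 39.8 in WT, both EKO libraries above both WT libraries. Next came Irf8 (above), Med12l, which holds P2ry12 and P2ry13 in its introns, Epb41l2, Mycbp2, Chd7, Chd2 and Ermap. Of these 10, Mycbp2, a ubiquitin ligase, had the largest level, 375 and 122 tags in EKO against 421 and 254 in WT, with −0.86 after quantile normalization (limma, adjusted p = 0.00012), a change under the fold limit. Med12l had 144 and 40.3 tags in EKO against 104 and 68.7 in WT at exon 19, and the directions of Epb41l2 and Chd2 turned with the scaling.

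The highest levels of all exonic distal windows were found in Cables1, an adaptor of CDK5, with 966 and 290.45 tags in EKO against 676 and 368 in WT. Dlst, a subunit of the 2-oxoglutarate dehydrogenase complex, had 522 and 192 tags in EKO against 325 and 198 in WT. Bbc3, which encodes the apoptosis protein PUMA, had 494 and 178 in EKO against 278 and 171 in WT, and its window was in called regions of every nuclei library and holds a GENCODE transcript start. Mycbp2 (above), Bend6, Nrg2, Tbc1d31, Thada, Ctsh and Nfkb1 followed. EKO library 1 was above EKO library 2 in each of the 10, and 0 of them changed by more than 2-fold at an adjusted p below 0.05 in limma, as deposited or after quantile normalization. Besides Mycbp2, the largest quantile-normalized difference among them was that of Ctsh, a lysosomal cathepsin (0.72, 511 and 150 tags in EKO against 162 and 123 in WT).

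**Figure D5:**
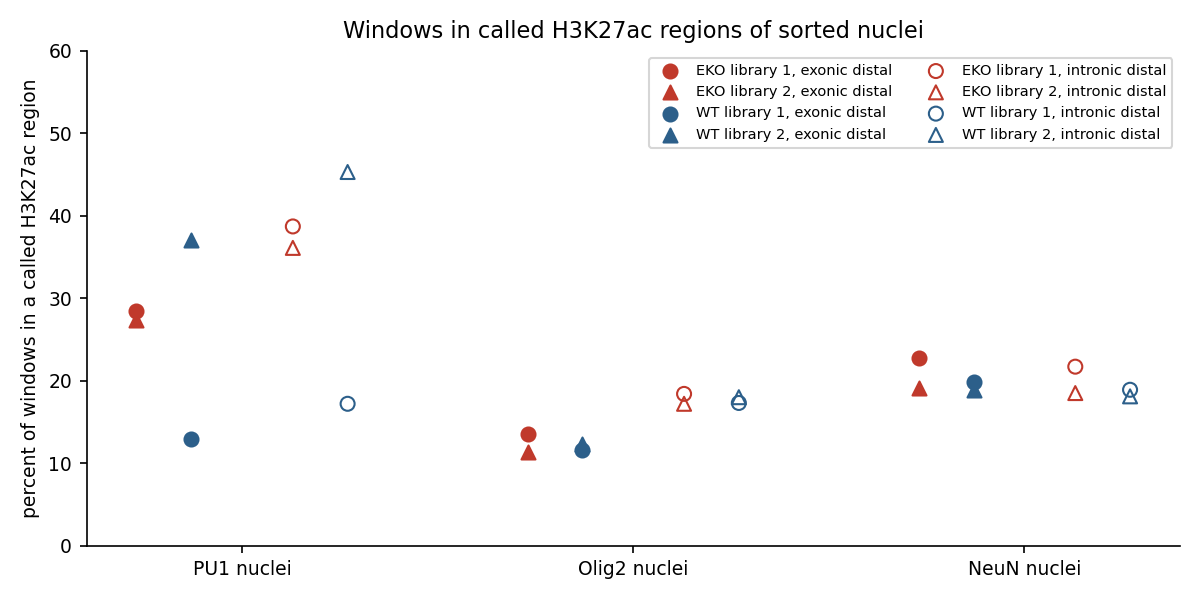
Percent of windows (y axis) in called H3K27ac regions of each EKO and WT library of PU1, Olig2 and NeuN nuclei (x axis), for exonic (filled) and intronic (open) distal windows. In PU1 nuclei the exonic shares are 28.5 and 27.4% in EKO and 12.9 and 37.0% in WT, each below that of intronic windows, while in NeuN nuclei exonic and intronic shares are close.

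Called H3K27ac regions of sorted nuclei tell in which brain cells an exonic window was marked. PU1 nuclei covered 531 and 511 of the 1866 windows in EKO (28.5 and 27.4%) and 240 and 691 in WT (12.9 and 37.0%), below the intronic shares of 38.7 and 36.1% in EKO and 17.2 and 45.3% in WT. The list of WT library 1 is shorter than the others, with 11149 regions against 25990 to 36057, and had the lowest share. Olig2 nuclei covered 13.5 and 11.4% in EKO and 11.6 and 12.3% in WT, against 17.2 to 18.4% of intronic windows. NeuN nuclei covered 22.7 and 19.1% in EKO and 19.9 and 18.9% in WT, against 18.1 to 21.7% of intronic windows. The EKO minus WT difference was 2.97 percentage points in PU1, 0.51 in Olig2 and 1.45 in NeuN nuclei, within the spread of libraries (exact permutation tests, two-sided, p = 1.0, 1.0 and 0.67, n = 2 against 2, where p cannot fall under 0.33). Without PU1 WT library 1 the PU1 difference was −9.11.

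The windows fell into groups by the nuclei that shared them. In no list were 676 windows, of which 15 were tested. PU1 lists alone held 485, with 300 tested and a SALL1 peak in 25.2%, whereas NeuN lists alone held 226, with 1 tested and a SALL1 peak in 0. All 3 types of nuclei shared 91 windows. The neuronal share was greater in last exons, with 31.0 and 27.5% in EKO and 31.2 and 27.5% in WT libraries, than in internal exons, with 19.5 and 15.9% in EKO and 15.7 and 15.7% in WT. In PU1 nuclei the order was the reverse, 25.7 and 25.9% in EKO and 12.6 and 32.8% in WT for last exons, against 29.5 and 28.0% in EKO and 13 and 38.6% in WT for internal exons. Last exons were also richer in GC (median 58.5% against 54.0%) and nearer to a TSS (10097 against 16062.5 bp), and the part of these was not tested.

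PU1 nuclei give lists from other libraries than those of the table. In both EKO libraries but not in WT library 2 were 50 windows, which in microglia had medians of 34.6 and 14.2 tags in EKO against 6.98 and 5.48 in WT. In WT library 2 but in neither EKO library were 203 windows, with 10.04 and 5.23 tags in EKO against 10.7 and 9.95 in WT. The median log2 change as deposited was 1.78 over the 50 and −0.37 over the 203, whether or not they passed the filter, against 1.67 and −0.31 in intronic windows chosen in the same way. Runx3, Adat2, R3hcc1l, Pitpna, Atp8b4 and the Cenpf window at chr1:189656735-189657735 lay in both EKO lists and in neither WT list. The Cenpf window at chr1:189657122-189658122, Rgl1, Man2a1 and Lekr1 lay in both EKO lists and also in 1 WT list. Rbbp9, Mast4 and Klhl7 lay in both WT lists and in neither EKO list, and Map7, Vash1 and Polr1a in 1 WT list only. Cd101 and Armc3 lay in both WT lists and also in 1 EKO list, and the P2ry12 windows in every PU1 list. Sall1 exon 4 lay in 0 of 2 EKO and 1 of 2 WT lists of PU1 nuclei, in 1 of 2 EKO and 2 of 2 WT lists of Olig2 nuclei and in 2 of 2 EKO and 1 of 2 WT lists of NeuN nuclei.

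Levels were close on both sides of the 3000 bp limit. The 159 exonic windows that lay up to 1000 bp beyond it had medians of 9.03 and 3.73 tags in EKO and 4.93 and 4.98 in WT, and the 202 that lay up to 1000 bp short of it, and so outside the choice, had 9.03 and 3.73 in EKO and 5.75 and 4.98 in WT, with median log2 changes of 0.06 and 0.27.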

How the data were processed

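The authors mapped reads to mm10 with Bowtie2, made HOMER tag directories and ran DESeq2, and the submitters' processing notes give no versions. The deposited microglia table holds a signal per 1000 bp window, tags scaled by the authors to a depth of 10000000 per library, with the nearest TSS and an annotation. These values are whole multiples of 1 tag (100% within a tolerance of 0.05 tags), from which the tag counts of the deposited table were recovered. For nuclei, each library has a deposited list of called regions with a tag signal and a ratio (fold) to input, 4 being about the lowest, and the depth of these libraries is unknown. Factor peaks were deposited as 1 reproducible (IDR) list per group, and the authors' score of a peak was used to rank peaks only. No column of per-sample values was left out.

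Exonic distal windows were those annotated as exon and over 3000 bp from a TSS. The 55285 windows whose 4 libraries averaged over 16 normalized tags were fitted together with limma 3.58.1 (R 4.3.3, mean-variance trend) on log2(tags + 1), which understates changes of low windows, with Benjamini-Hochberg adjustment over all of them, and called at an adjusted p below 0.05 and a fold above 2. Log2 changes are EKO minus WT. Quantile normalization, and edgeR 4.0.16 and DESeq2 1.42.0 on recovered tags, were alternatives, beside other pseudocounts, filters, overlaps and left-out libraries. The fits were tried on simulated tags with known changes, each library being scaled to its own total over the tested windows. That scaling leaves out the higher values of EKO library 1, so the simulation does not bear on them. The spread between libraries of a genotype exceeded sampling noise (chi-square per degree of freedom 2.87 in EKO, 2.93 in WT), so each library counted once. Overlap meant at least 1 bp. Shares have 95% Wilson intervals. Exon, GC and motif content came from the RefSeq annotation and sequence of GRCm38.p6, in which 1860 of 1866 window centres (99.7%) lay in the exon named, and transcript starts from the GENCODE models in the reference used. Python 3.11.15 with scipy 1.17.1 was used for overlaps and exact permutation tests.

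The windows, gene lists and tests were chosen with earlier results of these data known. Named windows were the 10 leading losing and gaining calls as deposited and after quantile normalization, with no overlap between the genotypes. Further ones were the 10 of highest level, the 10 with all 3 peaks by SALL1 score and the 10 genes with most windows. Genes the study gives as examples and the smallest p of each gene list were named too. Some windows and 1 sequence that these rules name are not reported here. Input libraries were not used.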

Additional observations from a re-analysis of the deposited data

How the results depend on the processing

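Under the replicate block, limma called 2 exonic windows losing and 9 gaining, against 0 and 3 without it (Sall1 exon 4 and Cd101 exon 2 losing, and Adat2, R3hcc1l, Pitpna, Rgl1, Man2a1 and Lekr1 added to the gains). Library numbers did not pair the samples (correlation of replicate differences between the genotypes 0.066). The counts losing and gaining were 79 and 37 after quantile normalization, 76 and 48 in edgeR, 51 and 32 in DESeq2, 3 losing without the filter and 1 gaining with a mean above 32 tags. Leaving out 1 library as deposited gave 0 to 54 losing, 0 to 124 gaining and a median log2 change of −0.64 to 0.83. After quantile normalization there were 37 losing and 11 gaining without EKO library 2, 8 and 13 without WT library 2, and 0 and 0 without either of the other libraries. The pseudocounts of 5 and 0.5 and windows over 10000 bp from a TSS moved neither count. The exonic minus intronic level, EKO minus WT, was 0.00 and became −0.02 with a pseudocount of 5, −0.11 against intergenic windows, −0.21 above 16 tags, −0.07 over 10000 bp and −0.08 to 0.08 without 1 library. With a fold over input of at least 8 the EKO minus WT difference in nuclei turned to −0.43 in Olig2 and −0.19 in NeuN, and without 1 library it ran from −9.11 to 15.06 in PU1, −0.56 to 1.58 in Olig2 and −0.35 to 3.24 in NeuN. Shares with SALL1, SMAD4 and p300 were 6.65, 2.3 and 4.39% in the central 200 bp and 5.20, 1.77 and 2.47% with the peaks above the median score, and SALL1 was 11.6% over 10000 bp. In the whole 1000 bp the motif shares were 64.0% (GGAAGT), 91.3% (CAGAC), 23.4% (TGANTCA), 19.8% (TATTTNTA) and 31.5% (TTGCNNAA). Directions turned at small changes. After quantile normalization, in edgeR and in DESeq2, the log2 change was −0.17, −0.26 and −0.27 for Epb41l2 (0.05 as deposited), −0.10, −0.03 and −0.07 for Chd2 (0.19) and −0.01, −0.17 and −0.15 for Ski (0.25), and Tg was 0.03 with a pseudocount of 5. Without 1 library the changes ran from −1.42 to 0.20 for Mycbp2, −0.98 to 0.94 for Tg, −1.01 to 0.83 for Irf8, −1.05 to 0.76 for Med12l, −0.69 to 0.80 for Epb41l2, −0.41 to 1.18 for Chd7, −0.69 to 1.08 for Chd2, −0.29 to 0.98 for Ermap, −0.65 to 1.14 for Ski, −1.91 to 0.41 for Ctsd, −0.75 to 0.67 for Cacna1a, −1.19 to 0.47 for Ttc25, −0.94 to 0.47 for Tll2 and −1.18 to 0.96 for exon 10 of Slc1a3. The cause was not tested. Without a library its genotype rests on 1, assumed to vary like the others, and windows under a mean of 16 tags were not tested.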

Other observations

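Genes with several exonic distal windows differed in how alike their windows were. Jmjd1c, a relative of histone demethylases, held 8 windows in exons 4 to 10, summing to 413 and 195 tags in EKO against 275 and 211 in WT, with no call. A SALL1 peak overlapped 4 of the 8, of which 3 overlap one another in exon 9. Cep152, a protein of centriole duplication, held 4 windows that moved apart. The overlapping windows in exon 21 had 83.3 and 38.8, and 76.3 and 26.1 tags in EKO, against 210 and 135, and 168 and 97.5 in WT (log2 changes −1.80 and −1.77, quantile-normalized limma, adjusted p = 4.1e-06 and 1e-05), and both overlapped a SMAD4 peak. Exon 15, with a SALL1 peak, had 61.2 and 14.2 tags in EKO against 16.8 and 12.9 in WT and exon 22 had 51.2 and 20.2 against 43.5 and 31.9, neither called. Chd2, a chromatin remodeller, held 4 windows whose nearest TSS was that of A730056A06Rik, at distances of −60138 to −78588 bp. Of these, exon 31 had 15.1 and 6.72 tags in EKO against 28.3 and 18.9 in WT (−1.75, quantile-normalized limma, adjusted p = 0.021). Exon 33, with all 3 peaks, was not called. The windows whose nearest TSS was that of Wdsub1 (6, in exons of Tanc1 and Baz2b), Akap13 (5) or Adamts1 (5) stayed at or below 19.9 tags in all libraries and none of these 16 was tested.

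Single genes that untested windows touch are given as values. Mef2d, a MADS-box factor, had 0 and 0.75 tags in EKO against 15.6 and 15.9 in WT at exon 4, which no SALL1, SMAD4 or p300 peak overlapped. Exon 6 of Gpnmb, a glycoprotein of activated microglia, had 9.03 and 1.49 tags in EKO against 2.05 and 1.00 in WT, and came from the EKO source list. Gpr34, a microglial receptor, had 33.1 and 5.23 tags in EKO against 9.85 and 3.98 in WT at exon 3, with a SALL1 peak. These were chosen after their values were seen.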
